A study of Rattus norvegicus with 48 samples.

Results

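Visceral adipose tissue (VAT, the fat around the abdominal organs) of sedentary male adolescent rats was compared between the late and the early active phase. The members were chosen by their labels: 6 VAT libraries of the late active phase control group (LAC) and 6 VAT libraries of the early active phase control group (EAC), 12 of the 48 libraries in the series. LAC tissue belongs to a zeitgeber time of 23 h and EAC tissue to a zeitgeber time of 13 h, where zeitgeber time counts the hours after lights on. Both groups were sampled on postnatal day 61, neither was exercised, and each library is a separate rat. No transgene or drug is given for either group in the labels, and the strain is not given in the sources used here. The rest of the series holds VAT of exercised rats of both phases and the subcutaneous fat (SAT) of every group. LAC and EAC are different rats, so time of day cannot be told apart from any difference in handling between the groups.

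Fat cells, like most cells of the body, run a molecular clock in which transcription activators switch on their own repressors over a cycle of about a day. The clock drives other transcription factors, and through them genes for lipid storage, lipid release and hormone secretion. Rats feed and move mainly in the dark, so the early active phase follows a long rest and the late active phase follows most of a night of feeding.

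Each of the 12 libraries held between 15050871 and 17890033 estimated counts, and in the smallest of them a single count of 1 equalled 0.0664 CPM (counts scaled by library size, given below after normalisation). The table names genes by Ensembl ID only, and 0 IDs could be paired with a symbol. The results are therefore given as the 4 IDs that changed most and as sets of genes, and the label of visceral fat was not checked against marker genes. Early control replicate 5 stood apart: its median Spearman correlation with the other 11 libraries was 0.957, against 0.977 to 0.983 for those 11. The main results are given with and without it.

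The genes that changed most between the phases differed by 15.8-fold or more, in both directions. ENSRNOG00000013408 and ENSRNOG00000014448 had the largest rises at the late phase, and ENSRNOG00000009329 and ENSRNOG00000042717 the largest falls, among called genes that averaged at least 5 CPM in either group. These 4 IDs were chosen by this comparison, so their levels in it describe the choice. For each of them the lowest library of the higher group lay at least 7.23 times above the highest library of the lower group. The RNA came from whole tissue, in which fewer cells of a type and less RNA per cell cannot be told apart.

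ENSRNOG00000013408 stood at 53.0, 49.5, 58.7, 53.5, 73.9 and 81.1 CPM in LAC replicates 1 to 6, against 3.4, 1.95, 3.93, 1.78, 1.99 and 1.96 CPM in EAC replicates 1 to 6. Among the LAC rats replicates 5 and 6 were the highest, and no library of one group came near the other. It averaged 61.6 ± 12.9 CPM in LAC and 2.50 ± 0.920 CPM in EAC (SD, n = 6 each). The fitted fold was 24.8, a log2 fold change of 4.63 ± 0.21 (SE; adjusted p = 4.16e-08, edgeR's quasi-likelihood test with Benjamini-Hochberg adjustment over 13530 genes), and 23.8 without early replicate 5.

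ENSRNOG00000014448 was the most even of the 4 between late rats. It stood at 50.4, 49.2, 47.1, 46.2, 45.1 and 44.3 CPM in LAC replicates 1 to 6, against 2.93, 1.71, 1.57, 2.93, 6.12 and 2.44 CPM in EAC replicates 1 to 6. The coefficient of variation was 5.0% in LAC, against 56.2% in EAC, and the EAC value was raised by the single library replicate 5. The fitted fold of 15.8 (log2 fold change 3.98 ± 0.25 SE, adjusted p = 7.78e-07, edgeR) became 20.3 without that library (log2 fold change 4.34 ± 0.14 SE, adjusted p = 4.23e-09, edgeR).

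ENSRNOG00000009329 was lower at the late phase. It stood at 2.13, 2.82, 2.27, 2.93, 3.43 and 2.40 CPM in LAC replicates 1 to 6, against 61.2, 95.1, 105, 58.5, 41.0 and 56.2 CPM in EAC replicates 1 to 6. Late rats were alike and early rats ranged widely, with replicates 2 and 3 highest and replicate 5 lowest. The fitted fold was 26.0 lower in LAC (log2 fold change -4.70 ± 0.25 SE, adjusted p = 1.57e-07, edgeR), and 28.2 without early replicate 5.

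ENSRNOG00000042717 was the least abundant of the 4 at the late phase, with 7, 7, 7, 6, 3 and 7 estimated counts in LAC replicates 1 to 6. These were worth 0.402, 0.470, 0.454, 0.352, 0.194 and 0.454 CPM, against 5.92, 14.6, 15.5, 7.19, 5.24 and 7.62 CPM in EAC replicates 1 to 6. Early replicates 2 and 3 were again the highest and replicate 5 the lowest of the early rats. Replicates 2 and 3 were the 2 highest early libraries in 6.94% of all genes called lower and 7.90% of those called higher. The share was 5.37% of all genes tested, and 5 of the 18 genes called lower over 4-fold. The fitted fold was 23.7 lower in LAC (log2 fold change -4.57 ± 0.35 SE, adjusted p = 4.76e-06, edgeR), and 25.8 without early replicate 5. At 3 to 7 counts a library in LAC, counting error limits how precisely the size of this fold is known.

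**Figure D1:**
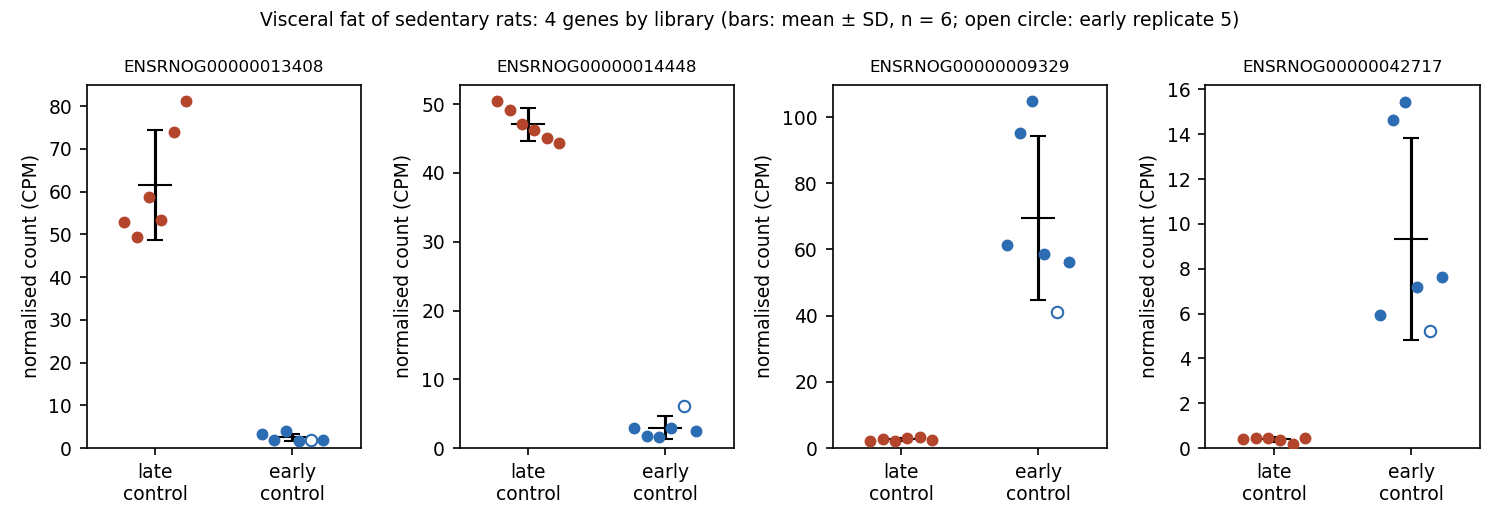
Normalised counts (CPM, linear axis from 0) of the 4 IDs in each late control and early control library, with the mean and SD of 6 rats as bars and early control replicate 5 as an open circle. In all 4 panels the groups are apart; in the 2 falling IDs early replicates 2 and 3 are the highest points.

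Across the genome, 1364 of 13530 genes tested (10.1%) differed between LAC and EAC in this fit of the 12 libraries alone, of which 658 (4.86%) were higher in LAC and 706 (5.22%) were lower (edgeR, adjusted p under 0.05). Most of these changes were small: the median called change was 1.4-fold. Changes over 2-fold made up 204 of the calls, 95 of them higher and 109 lower in LAC. Over 4-fold there were 13 higher and 18 lower, and over 8-fold 3 higher and 8 lower. The median log2 fold change of all tested genes was -0.01, so the scaling placed the bulk of genes at no change.

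**Figure D2:**
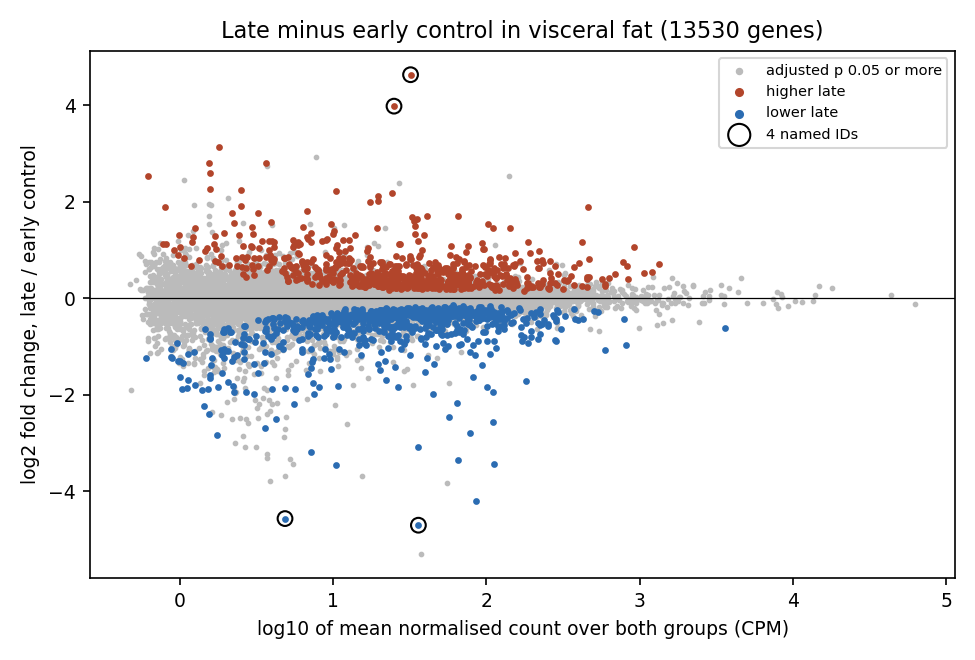
Fitted log2 fold change of late over early control (y axis) against the log10 of the mean normalised count in CPM (x axis) for 13530 genes; coloured points passed adjusted p under 0.05 and circles mark the 4 named IDs. The calls lie on both sides of 0, with 658 higher and 706 lower late, and some uncalled genes lie below -2.

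The calls were spread over the whole range of expression. When the tested genes were ordered by mean CPM and cut into 5 equal parts of 2706, the calls numbered 165, 250, 278, 327 and 344 from the lowest to the highest part, or 6.10%, 9.24%, 10.3%, 12.1% and 12.7%. The median called change was 2.08-fold in the lowest part and 1.35-fold in the highest. Small changes in low genes are harder to detect at this depth, so the lower share of calls among low genes does not show that fewer of them changed. Each part held both rises and falls: 72 rises and 93 falls in the lowest, and 177 rises and 167 falls in the highest.

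As a share of all counts, the genes called higher made up 5.45% ± 0.353 of each LAC library and 3.79% ± 0.289 of each EAC library (SD, n = 6 each). The genes called lower made up 3.19% ± 0.166 in LAC and 4.66% ± 0.185 in EAC. Both sets were chosen by this contrast, so these shares give only the size of the shift. At either phase the called genes thus held a part of all counts not far from their share of the genes tested (10.1%).

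In many of the called genes the rats did not overlap. All 6 LAC libraries lay above all 6 EAC libraries in 434 genes (3.21% of those tested), of which 402 were called higher. All 6 lay below in 402 genes (2.97%), of which 379 were called lower. Without early control replicate 5 these counts were 639 above (4.72%) and 628 below (4.64%). When any other library was left out, they were 470 to 543 above and 435 to 531 below. Such rises are largely fixed in advance, since fewer libraries then have to lie apart. With all 12 libraries the other 583 called genes, 256 higher and 327 lower, had at least 1 rat of one group within the range of the other.

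Calls were counted again in 12 fits, each without 1 library. With fewer rats, calls near the threshold can be lost whichever rat is left out. A lost call therefore does not show that it rested on 1 rat. Leaving out any library other than early replicate 5 lost 229 to 359 of the 1364 calls. The 12 fits called between 1036 and 1755 genes. Of the 1364 calls, 893 (65.5% of them, 6.60% of genes tested) were called in every one of the 12 fits. Of the 893, 460 were higher and 433 lower in LAC. They included 171 of the 204 changes over 2-fold, and their median change was 1.49-fold. The 4 named IDs were called in all of these fits.

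**Figure D3:**
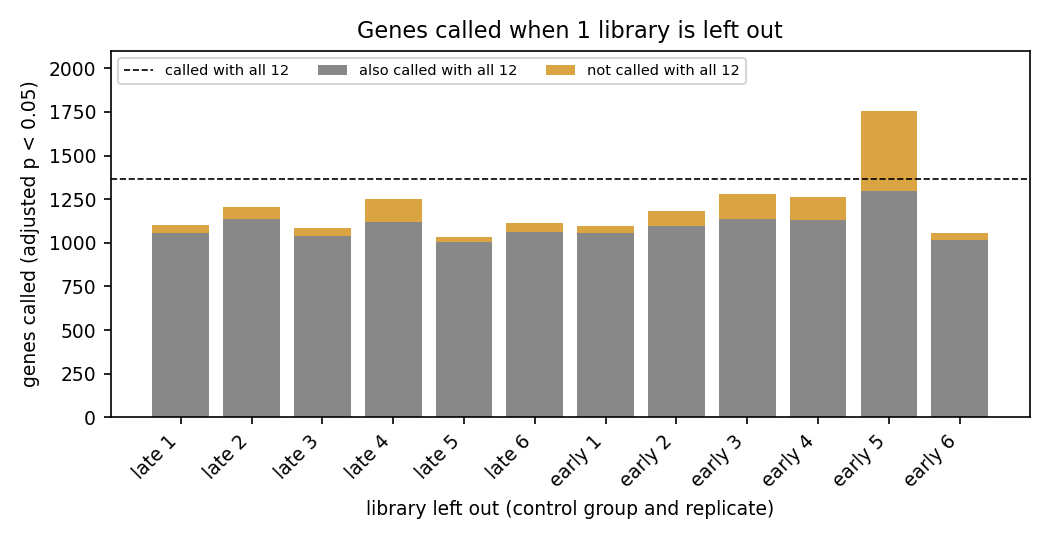
Number of genes called between late and early control (y axis) when the library named on the x axis is left out; grey bars count genes also called with all 12 libraries and yellow bars the others. Leaving out early replicate 5 is the only case above the dashed line at 1364, and it adds 461 genes.

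Early control replicate 5 had 205 genes over 4-fold above the median of the other 5 early libraries, against 9 to 21 in those 5 and 5 to 41 in the late libraries, each set against its own group. The highest of these was 236-fold up, with 0.5 CPM added to both values. It also had the most genes with a count, 16864 against 16022 to 16455 in the other 11 libraries, while its total count of 16253344 was near the middle of the 12. Of the 205, each other early library had 2 or 3 over 4-fold above its own group in the same way, which the choice of the genes largely fixes. Which tissue or cell type these transcripts mark was not tested.

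The 205 genes were chosen for 1 outlying library, which widens their spread in the test. With all 12 libraries 197 of them had a negative fold change, which follows from choosing them as high in an early library, and their median log2 fold change was -1.08. Of the 205, 2 were called, both lower in LAC, beside 10.1% of all genes tested, and both stayed called without replicate 5. Without that library their median log2 fold change was 0.05, with 93 of 205 negative, and 10 were called, beside 12.9% of all genes tested. In the plot of fold changes with and without replicate 5 these genes lie mostly below the line of equal values.

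**Figure D4:**
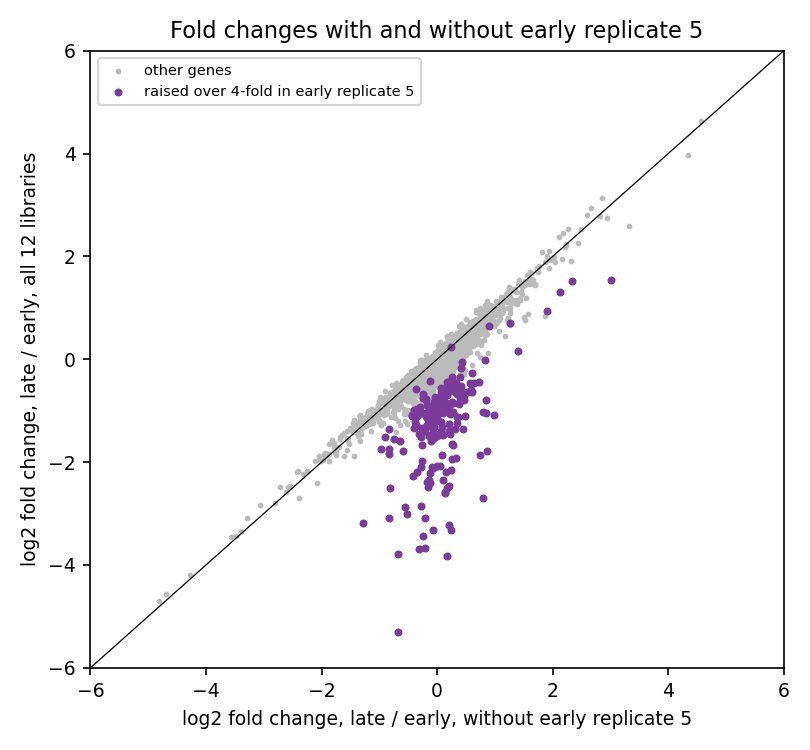
Fitted log2 fold change of late over early control with all 12 libraries (y axis) against the same without early control replicate 5 (x axis), 1 point a gene; purple points are the 205 genes raised over 4-fold in replicate 5 and the line marks equal values. The purple points have a median of -1.08 on the y axis and of 0.05 on the x axis, while most grey points lie close to the line.

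Leaving replicate 5 out raised the number of calls to 1755 of 13558 tested (12.9%), with 850 higher (6.27%) and 905 lower (6.68%). Of the 1364 calls with all libraries 1294 were among them, 70 were lost and 461 were gained. The lost calls were 36 higher and 34 lower. All 13 rises and all 18 falls over 4-fold were called with and without the library, and the largest loss was a log2 change of 1.88 in size. The common biological coefficient of variation, the spread between rats beyond counting error, was 19.7% with 12 libraries and 15.7% without replicate 5. Within groups it was 14.7% in LAC, against 23.7% in EAC, and 16.7% in EAC without replicate 5. Late control replicate 4 had the next highest number of raised genes, 41, of which 2 were among the 205.

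Whether the sedentary phase difference in VAT differs from that in exercised rats was tested as an interaction over the 24 VAT libraries. Exercised rats had trained at the early or late phase and were sampled 24 h after the last session. No gene passed (edgeR: 0 of 13883, or 0%, and 975 before adjustment at the same threshold of 0.05; the lowest adjusted p was 0.441), while DESeq2 called 2 (0.0144%) and limma voom 0. A further fit left out early control replicate 5 and early exercise replicate 3, the latter's library measures not being given here. In it edgeR called 0, with 1321 under 0.05 before adjustment and a lowest adjusted p of 0.292. Against SAT of the sedentary groups, 0 of 14123 genes (0%) passed edgeR's test of a depot by phase interaction. Before adjustment 1651 lay under 0.05, and the lowest adjusted p was 0.127. Without VAT early control replicate 5 edgeR called 0, with 1508 before adjustment and a lowest adjusted p of 0.115. Here DESeq2 called 48 (0.34%) and limma voom 7 (0.0496%), so the count for the depot difference depended on the test.

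For the 4 IDs these differences are given with their intervals. The IDs were chosen by their change in sedentary VAT, which enters each difference, so the intervals are not strict bounds. The log2 change of ENSRNOG00000013408 was 4.63 in sedentary VAT, 4.90 in exercised VAT and 4.91 in sedentary SAT. The difference from exercised VAT was -0.28 (95% interval -0.86 to 0.29) and that from SAT -0.26 (-0.96 to 0.44), sedentary VAT minus the other. For ENSRNOG00000014448 these differences were -0.23 (-0.95 to 0.49) and 0.03 (-0.67 to 0.72). For ENSRNOG00000009329 they were 0.14 (-0.65 to 0.94) and -0.38 (-1.17 to 0.41), and for ENSRNOG00000042717 0.23 (-0.83 to 1.29) and 0.36 (-0.79 to 1.51). These intervals, from fits without the rat as a block, all hold 0. A blocked fit took VAT and SAT libraries of 1 replicate number in a group as the same rat. In it the VAT minus SAT difference of ENSRNOG00000009329 was -0.34 (-0.65 to -0.04), which does not hold 0, with an adjusted p of 0.294 over all genes (edgeR). In the same blocked fit it was -0.28 (-1.01 to 0.46) for ENSRNOG00000013408, 0.06 (-0.19 to 0.31) for ENSRNOG00000014448 and 0.46 (-0.35 to 1.27) for ENSRNOG00000042717. For ENSRNOG00000014448 and ENSRNOG00000042717 the unadjusted p-values of that fit were 0.749 and 0.282 (edgeR). Both are larger than these 2 intervals imply, so the 2 intervals are too narrow.

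**Figure D5:**
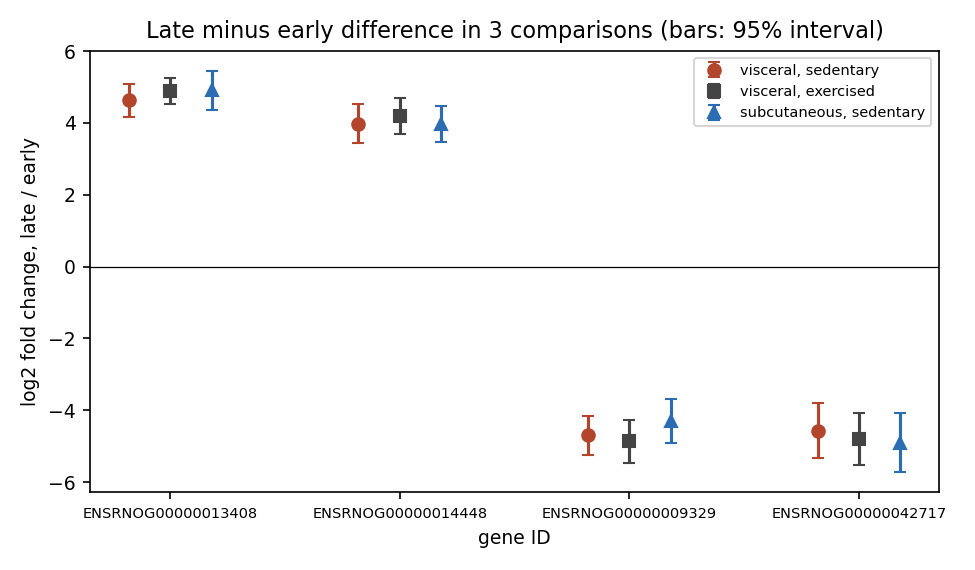
Fitted log2 fold change of late over early (y axis) for the 4 IDs in visceral fat of sedentary rats, visceral fat of exercised rats and subcutaneous fat of sedentary rats, with 95% intervals. In each ID the 3 values have the same sign, between 3.98 and 4.91 for the 2 rising IDs and between -4.91 and -4.30 for the 2 falling IDs.

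With the rat as a block, taken by replicate number, the depot by phase test still called 0 genes. The lowest adjusted p was 0.0906 (edgeR), and 1971 genes lay under 0.05 before adjustment. Without both libraries of early control rat 5 the test called 1 of 14152 (0.00707%), a gene that fell more in VAT than in SAT. With early control rat 5 kept, it stood at 19.3 ± 4.26 CPM in VAT of LAC and 76.5 ± 32.8 CPM in VAT of EAC. In SAT it stood at 12.5 ± 2.10 CPM in LAC and 27.3 ± 14.6 CPM in EAC (SD, n = 6 each). In the fit without early control rat 5, the VAT minus SAT difference in its log2 change was -0.82 ± 0.10 (SE, adjusted p = 0.0193, edgeR). With all rats its adjusted p was 0.0906 with the block and 0.448 without it (edgeR). This gene carries no name here, and it was singled out after its values were seen.

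The genes called in sedentary VAT were also followed by sign in the other comparisons, each fitted on its own 12 libraries. None of these libraries is shared, though SAT was taken to come from the same rats. In exercised VAT, where 2262 of 13453 genes were called (16.8%), 1326 of 1359 sedentary VAT calls had the same sign and 874 were called again in the same direction, or 64.1% of the sedentary VAT calls and 38.6% of the exercised ones. In sedentary SAT, where 1671 of 13763 were called (12.1%), 1264 of 1359 had the same sign and 664 were called again, or 48.7% of the VAT calls and 39.7% of the SAT calls. No VAT call was called in the opposite direction in either. Without early control replicate 5 this was 1 gene in SAT and 0 in exercised VAT. How many of all genes tested share a sign was not computed, so the same-sign counts stand without that background.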

How the data were processed

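PolyA-selected RNA was sequenced as 50-nt single-end reads from RNA with an integrity number over 9, per the labels' protocols. The authors deposited whole-number estimated counts of 23481 Ensembl IDs, made with Salmon 1.4.0 and rn6 per the submitters' processing notes. For the annotation release, and for how transcripts became genes, the sources used here give nothing. The 12 columns were matched by library name.

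Rounding changed 0 counts. The test was edgeR 4.0.16 (R 4.3.3) with TMM scaling, filterByExpr (13530 genes, 99.9% of counts), a quasi-likelihood fit of the 12 libraries alone, and Benjamini-Hochberg adjustment, with calls at 0.05. Interactions used 24 libraries. A standard error is the log2 change divided by the root of its F value. Raised genes were read on log2(CPM + 0.5). The edgeR fit was also run on simulated counts drawn without an outlying library, and its outcome is not given here. Alternatives were DESeq2 1.42.0 (size factors, Wald test), limma 3.58.1 voom with quality weights, no filter, a fit of 4 VAT groups, leaving out each library and a replicate block.

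Named IDs are the 2 largest rises and falls among called genes that reach 5 CPM on average in either group; with no symbols, the 36 gene and marker lists were not used. Members and lists were chosen with earlier results of these data known. Replicates of a group differed beyond sampling noise (30 pairs, chi-square per degree of freedom 8.15 to 90.5). Depots were paired by replicate number within a group, taken as the same rat. The labels used here give that number and no rat identity, and the pairing was not tested. LAC and EAC rats of 1 number are different rats.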

Additional observations from a re-analysis of the deposited data

Results flagged for a closer look

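Single libraries were set against their group of 6 in 16 tests, for 4 library measures and 4 IDs in each group. The usual rate of about 1 in 20 is no measure of chance here. Early control replicate 5 was known beforehand as atypical, the 4 IDs were chosen by this comparison, and the measures are not independent. Of the 16 tests, 5 singled out a library by its gap to the rest. Early control replicate 5 accounts for 4 of them: a median Spearman correlation of 0.957 (next 0.977), 16864 genes with a count (next 16315), 205 genes raised over 4-fold (next 21) and 6.12 CPM of ENSRNOG00000014448 (next 2.93). The lowest late library had 44.3 CPM of that ID. Late control replicate 4 had 41 genes raised over 4-fold, with 11 in the next late library. The source of the raised genes in either library was not tested.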

How the results depend on the processing

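The direction of the 4 named IDs and their side of the threshold were kept under DESeq2 size factors, no filter, DESeq2, limma voom, the fit of 4 VAT groups, the replicate block and each left-out library. The 1364 calls became 2049 with limma voom (1337 shared), of which 1065 were lower; the cause was not tested. They were 1385 with DESeq2 size factors, 1174 without the filter, 1867 with DESeq2 and 1575 in the fit of 4 VAT groups (1253 shared). Leaving out 1 library gave 1036 to 1755 calls, 530 to 850 higher and 506 to 905 lower. Without the filter, 52 calls were over 4-fold, against 31 with it. Genes with all late below all early libraries numbered 628 (4.64%) without early control replicate 5, against 402 (2.97%) with it. A block by replicate number, which pairs different rats, called 1111, with 1002 shared. Same-numbered libraries correlated between -0.179 and 0.235 in their deviations, and 1 of 6 late libraries correlated best with its own number. For the activity by phase interaction DESeq2 called 2 genes. For the depot by phase interaction DESeq2 called 48, limma voom 7, and the rat as a replicate block without early control rat 5 called 1 (0 with all rats). These tests have 6 rats a group, so a count of 0 does not show equal phase differences. Counting intervals and floors were not used; at the lowest total, 3 counts are worth 0.199 CPM.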
